A study of Mus musculus with 6 samples.

Results

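Fragments of messenger RNAs that encode cytosolic ribosomal proteins were followed in small RNA libraries of thymic regulatory T (Treg) cells. Of the 54547 gene identifiers in the count files, 86 met the rule: a protein-coding gene in the GENCODE vM21 annotation (mouse genome build GRCm38) whose symbol starts with Rpl or Rps and a digit, or is Rpsa, Rplp0, Rplp1 or Rplp2. Ribosomal S6 kinases (Rps6k) and symbols holding -ps, which mark pseudogenes, were left out. Canonical ribosomal proteins are encoded by 77 of the genes, 31 of the small subunit and 46 of the large subunit. A further 8 are paralog copies (Rpl3l, Rpl7l1, Rpl10l, Rpl22l1, Rpl36al, Rpl39l, Rps27l and Rps27rt). The last, Rps19bp1, encodes a protein that binds Rps19 and is no part of the ribosome, but its symbol meets the rule. Fau and Rack1, whose protein products belong to the ribosome under other names, fall outside the rule and are given beside it.

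Small RNA was sequenced from 3 wild-type (WT) and 3 miR-181a/b-1-/- Treg cell samples, the latter named KO in the labels and here and lacking 1 of the gene clusters that encode miR-181a and miR-181b. Both groups had the strain background that the labels spell C5BL6/N, the mice were 7 weeks old, and each sample was a sort from 3 pooled thymi. The pooling is described in the study's methods, so single animals cannot be told apart and p-values measure the spread between pools. The methods and a supplementary legend of the study give the thymus as the source, which is followed here. Its results text calls the sequenced cells peripheral. The kit adds a tail to RNA of any kind and copies it by template switching, so pieces of messenger RNA enter the libraries beside microRNA and small nucleolar RNA (snoRNA). Within the study these libraries served to compare microRNAs between the genotypes, and the same count files hold the ribosomal protein genes.

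A ribosome is built from a small and a large subunit, each a folded ribosomal RNA coated with proteins that are made in the cytoplasm, imported into the nucleus and assembled in the nucleolus. Ribosomal protein genes are among the most strongly transcribed genes of growing cells, their messages are short, and their translation is tuned by growth signals. Many of them carry snoRNA genes in their introns, which are cut out of the spliced intron and then guide the chemical modification of ribosomal RNA, and many have given rise to processed pseudogenes, copies of the mRNA reinserted elsewhere in the genome. Both features bear on what a count on such a gene holds.

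Between 168293 and 307840 counts per library fell on genes, from 222013 to 243620 in WT. Of all records, 75.7% to 80.3% were given to no gene, including 41.7% to 46.2% without a unique alignment and 20.4% to 24.0% on more than 1 gene. Among the gene counts, snoRNA genes took 41.9% to 45.8% and nuclear protein-coding genes 20.6% to 26.2%. Of the deleted genes, Mir181a-1 had a single count, in WT replicate 2, and Mir181b-1 had 0 in all 6 libraries, so neither could serve as a check of the genotype. The Treg cell marker Foxp3 had 25, 26 and 23 counts in WT and 19, 17 and 39 in KO libraries. Of 9 Treg cell genes 8 passed the filter for testing, while Ctla4, an inhibitory receptor of Treg cells, had 1 count over the 6 libraries, so a marker near 0 does not show that its mRNA was absent. Counts on markers of other cells were few: 0 counts for 7 erythroid genes, a sum of 0 or 1 for 7 myeloid genes and for 4 genes of thymic epithelium, 1 to 8 for 8 genes of double-positive thymocytes, and 7 to 13 for 6 B-cell genes.

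The snoRNA genes inside ribosomal protein genes are shown first, since whether they had counts followed their place in the host. In GENCODE vM21, 30 of the 86 genes hold a snoRNA gene on the same strand. Of these snoRNA genes, 28 lie in an intron, 27 lie wholly within annotated exons of the host, taken over all its transcripts, and 3 lie partly in them. Of the 27, 23 lie in a transcript that GENCODE classes as retained intron and 0 lie in the mRNA taken as the representative of the host. Snora7a lies in a protein-coding transcript of Rpl32, and Gm24044 in Rpsa lies in no single exon but is covered by the merged exons of the host. Rpl13a, which encodes a protein of the large subunit, hosts both kinds, and its 4 snoRNA genes are printed to show that those counted and the one not counted are alike in form. They are written 5′ to 3′ as DNA from the GENCODE transcripts, with the letters TGATG (the core of the C box of C/D-box snoRNAs) and CTGA (the D box) in capitals wherever they occur.
Snord32a: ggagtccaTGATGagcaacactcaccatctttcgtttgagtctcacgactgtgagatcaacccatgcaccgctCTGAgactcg
Snord33: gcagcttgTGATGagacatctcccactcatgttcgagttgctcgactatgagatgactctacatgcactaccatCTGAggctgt
Snord34: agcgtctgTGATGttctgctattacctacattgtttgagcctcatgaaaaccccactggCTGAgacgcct
Snord35a: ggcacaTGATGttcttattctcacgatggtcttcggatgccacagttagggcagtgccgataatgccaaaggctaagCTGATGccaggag
All 4 lie on the minus strand of chromosome 7, at chr7:45127382-45127464, chr7:45126864-45126947, chr7:45126601-45126670 and chr7:45126346-45126435 in the order printed.

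Snord32a, in an intron, had 7689, 7634 and 8884 counts in WT and 5457, 6822 and 11326 in KO. Snord34 and Snord35a, also in introns, had 41530 and 19064 counts over the 6 libraries. Snord33 lies wholly in an exon of the retained-intron transcripts Rpl13a-211 and Rpl13a-218 and had 0 counts in each of the 6 libraries. It also shares bases with the microRNA gene Mir5121 (chr7:45126918-45126991) on the same strand, unlike the other snoRNA genes printed. The 3 genes with counts and the 1 without thus come from the same host, and the letters of the C and D boxes stand near the ends of all 4.

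The same split held across the hosts. All 27 snoRNA genes wholly within annotated exons, in 23 hosts, had 0 counts in every library. Of the 28 in introns, in 16 hosts, 27 had counts and 26 had at least 100, with a median of 2318 over the 6 libraries and a highest value of 47812 for Snord32a. The exception was Gm24888 in an intron of Rpl27a, with 0. It shares bases with the microRNA gene Gm47284 (chr7:109521249-109521368) on the same strand, and the part of that overlap was not tested. Of the 3 that lie partly in an exon, Snord42b in Rpl23a had 11 counts and Gm23202 in Rpl21 and Gm22455 in Rpl4 had 0. All 4 microRNA genes that lie wholly in a host exon had 0 counts, but those in introns were mostly near 0 too. Of these 3, Gm47284 had 0 and Mir3091 had 3 over the 6 libraries. The third, Snord43, had 6026 and is classed as a microRNA gene although its name is that of a snoRNA. A record that falls wholly inside exons of a pair of genes on 1 strand is set aside by HTSeq as lying on more than 1 gene, and the share of such records is given above. How much of that share came from these snoRNAs was not tested, and the exons are those of GENCODE vM21, which may not be the release used for counting.

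**Figure D1:**
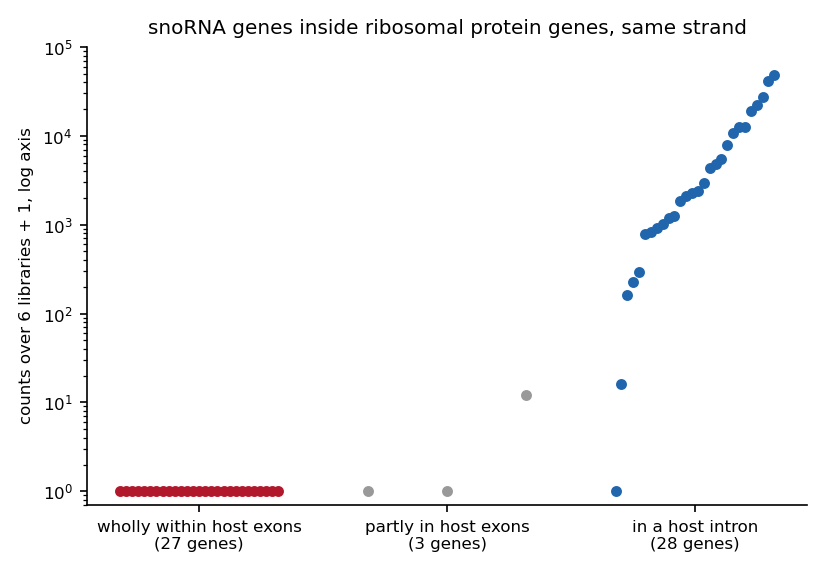
Counts summed over the 6 libraries, plus 1 and on a log axis, for each snoRNA gene that lies inside a ribosomal protein gene on the same strand, by its place in the host. The 27 genes wholly within host exons are all at 0 counts (drawn at 1), whereas the 28 in host introns reach 47812.

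In sum, the snoRNA genes in introns of ribosomal protein genes had far more counts than the 86 ribosomal protein genes. Together they had 40085, 40217 and 40527 counts in WT and 27857, 32753 and 53646 in KO. Over the 6 libraries this was 4.73 times the counts on the 86 ribosomal protein genes, and the ratio lay between 4.34 and 5.39 in single libraries. As a share of gene counts they made up 17.5% ± 0.781 in WT and 16.9% ± 0.452 in KO libraries (SD, n = 3 each). The difference, -0.61 percentage points, was smaller than the SD of the WT libraries and larger than that of the KO libraries. WT replicates 1 and 2, at 18.1% and 17.9%, were above all KO libraries and WT replicate 3, at 16.6%, was within their range. Rpl13a itself is the plainest case: it had 78 counts over the 6 libraries against 108406 on the snoRNA genes in its introns. The excess varied by host and did not hold for Rpl27a, with 113 counts against 0. For Rpl7a it was small, at 11897 counts against 12661.

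The ribosomal protein genes themselves had 7432, 8766 and 9069 counts in the 3 WT replicates and 6425, 7196 and 10837 counts in those of KO. As a share of gene counts this was 3.35%, 3.90% and 3.72% in WT and 3.82%, 3.69% and 3.52% in KO Treg cells. The means, 3.66% ± 0.284 (SD, n = 3) and 3.68% ± 0.149 (SD, n = 3), differed by 0.0178 percentage points, less than either SD, and the KO libraries lay within the range of the WT libraries. Of the counts on nuclear protein-coding genes alone, the share was 15.7% ± 1.40 in WT and 15.7% ± 1.27 in KO libraries (SD, n = 3 each). Shares of a library say nothing of the amount of RNA in a cell, and in sorted bulk samples fewer cells of a type and less RNA per cell cannot be told apart.

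Counts were detected on 84 of the 86 genes. A single gene, Rpl7a, took 23.9% of all counts on ribosomal protein genes, the leading 10 took 51.2% and the leading 40 took 83.8%. Without Rpl7a the other 85 genes made up 2.28%, 2.66% and 3.07% of the gene counts in WT and 2.87%, 3.03% and 2.78% in KO libraries. WT replicate 1 was the lowest of the 6 on this measure and WT replicate 3 the highest, so the WT range enclosed that of the KO libraries.

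**Figure D2:**
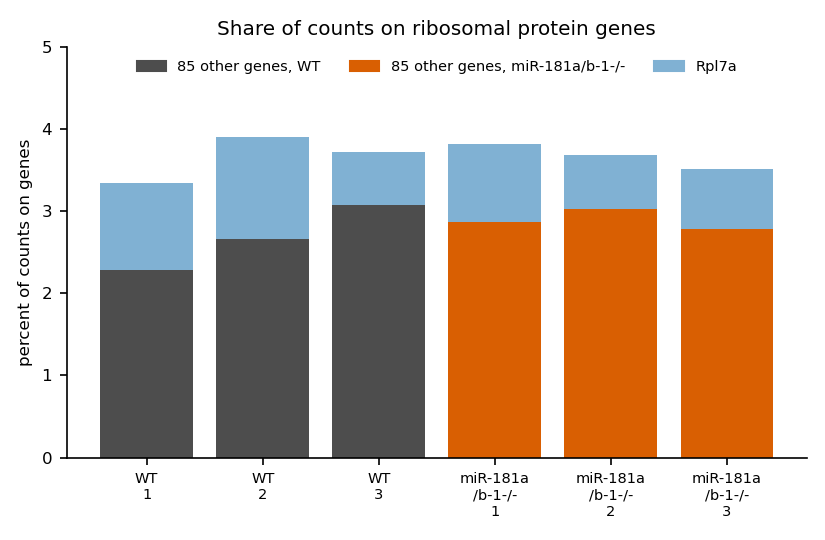
Percent of the counts on genes that fell on ribosomal protein genes in each of the 6 libraries, as stacked bars for Rpl7a (light blue, top) and for the other 85 genes (grey for WT, orange for KO). The bars end between 3.35% and 3.90% in all 6 libraries, while the part without Rpl7a is lowest, at 2.28%, in WT replicate 1.

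Rpl7a encodes a protein of the large subunit and lies on the plus strand of chromosome 2 (26910764 to 26913318). It had 2360, 2782 and 1586 counts in WT and 1595, 1288 and 2286 in KO. As CPM, counts scaled by library size and the TMM factor of the test, these were 11749, 14137 and 7147 in WT and 9619, 7261 and 9378 in KO Treg cells. WT replicates 1 and 2 were above all 3 KO libraries and WT replicate 3 was below them. The log2 fold change of KO against WT was -0.33 (SE 0.24), and the quasi-likelihood test of edgeR over 1391 genes gave an adjusted p of 0.980. Without WT replicate 2 the log2 fold change was -0.12, without KO replicate 2 it was -0.21 and without WT replicate 3 it was -0.56, none of them called after adjustment.

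The spread of Rpl7a between replicates of a genotype was above counting error, with a chi-square of 136 times its degrees of freedom. That ratio grows with the count, so it does not rank Rpl7a against genes with fewer counts. Its share of the counts on ribosomal protein genes was 31.8%, 31.7% and 17.5% in WT and 24.8%, 17.9% and 21.1% in KO, with WT replicate 3 the lowest of the 6 libraries.

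What lies inside Rpl7a bears on its count. The annotation has 3 snoRNA genes within it, and RefSeq (GRCm38.p6) lists 1 more, LOC115489588, for which GENCODE vM21 has no gene. All 68 bases of LOC115489588 lie in exons of the annotated transcripts Rpl7a-204 and Rpl7a-206, and not in the representative mRNA, Rpl7a-201. With no gene of its own, a record from it would be counted as Rpl7a where the counting used these exons. The 4 sequences are printed to show that the RefSeq entry has the same boxes as its neighbours, with TGATG and CTGA in capitals as above.
Gm23969: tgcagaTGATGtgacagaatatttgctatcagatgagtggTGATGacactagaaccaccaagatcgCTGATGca
Gm22879: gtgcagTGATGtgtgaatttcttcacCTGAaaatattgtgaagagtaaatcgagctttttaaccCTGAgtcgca
Gm24134: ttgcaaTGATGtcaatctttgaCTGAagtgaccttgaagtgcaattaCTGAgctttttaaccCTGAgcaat
LOC115489588: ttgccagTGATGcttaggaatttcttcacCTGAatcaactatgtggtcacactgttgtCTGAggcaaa
They lie in this order on the plus strand, at chr2:26911261-26911334, chr2:26912218-26912291, chr2:26912530-26912600 and chr2:26912848-26912915.

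Gm23969 lies in an intron and had 2101, 2056 and 2275 counts in WT and 1497, 1685 and 3047 in KO libraries, 12661 in all and close to the 11897 on Rpl7a. Gm22879 and Gm24134 lie in exons of Rpl7a-202 and had 0 counts in all 6 libraries. The counts do not separate fragments of Rpl7a mRNA from the snoRNA that RefSeq gives, and its part in the level of Rpl7a was not tested. Only 1 other ribosomal protein gene, Rpl3, holds a snoRNA that RefSeq lists and GENCODE vM21 does not, LOC115488570 (55 bases, chr15:80081032-80081086). Rpl3 had 465 counts over the 6 libraries.

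Next in number of counts came Rps14, which encodes a protein of the small subunit, with 2972, 4253 and 4745 CPM in WT and 3679, 4138 and 4082 CPM in KO libraries. The KO libraries lay within the WT range, and the log2 fold change was -0.01 (SE 0.24, edgeR adjusted p = 0.998). Rps24, also of the small subunit, had 971, 1291 and 1541 CPM in WT and 1176, 1674 and 2027 CPM in KO libraries. Its groups overlapped, with the lowest value in WT and the highest in a KO library (log2 fold change 0.36, SE 0.26, edgeR adjusted p = 0.980, and 0.17 without WT replicate 1 or KO replicate 3). Rpl23a, which lines the exit of the peptide tunnel, varied little in WT, at 1026, 1016 and 1113 CPM, and had 953, 1156 and 1005 CPM in KO libraries. Rpl32, Rps20, Rplp1, Rps3 and Rpl26 were also among the 10 with most counts, had total counts from 796 to 1063, and overlapped between the genotypes.

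**Figure D3:**
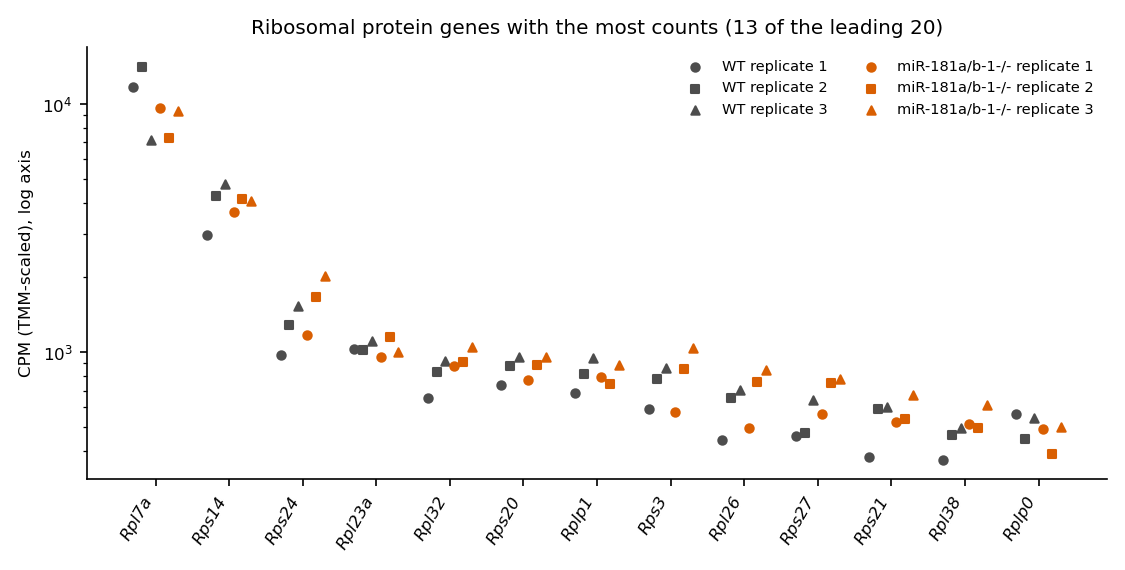
CPM on a log axis of 13 of the 20 ribosomal protein genes with the most counts, those named in the text, with 1 point per library (grey for WT, orange for KO, shape for the replicate). Rpl7a and Rps14 stand above the rest, and the points of the genotypes overlap in 12 of the 13 genes, the exception being Rpl38.

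Levels of different genes were compared per kb of the representative mRNA. On this scale Rpl7a (10812 CPM per kb as the mean of 6 libraries) and Rps14 (6664 CPM per kb) stayed the highest. Then came Rpl23a (1866), Rps27 (1768), Rpl32 (1692), Rplp1 (1628), Rps21 (1398), Rpl38 (1349), Rpl26 (1234) and Rps29 (931), all in CPM per kb. The range over libraries was 7819 to 15468 for Rpl7a. From Rpl23a to Rplp1 the means differed by less than the range of the libraries of Rps27, so the order among these 4 is not fixed by the data. The median over the 77 canonical genes was 411 CPM per kb, and the median over 34 Rps symbols was 506 against 301 over 52 Rpl symbols. The length of the mRNA used matters here: Rps20 was 6th in counts but 54th per kb, because its representative transcript has 3706 bases. Counts may also fall on exons outside this mRNA, and genes differ in that. The merged exons of all transcripts have 1781 bases for Rpl7a against 914 in its mRNA, and 2394 against 597 for Rps14. For Rplp1 both have 499.

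**Figure D4:**
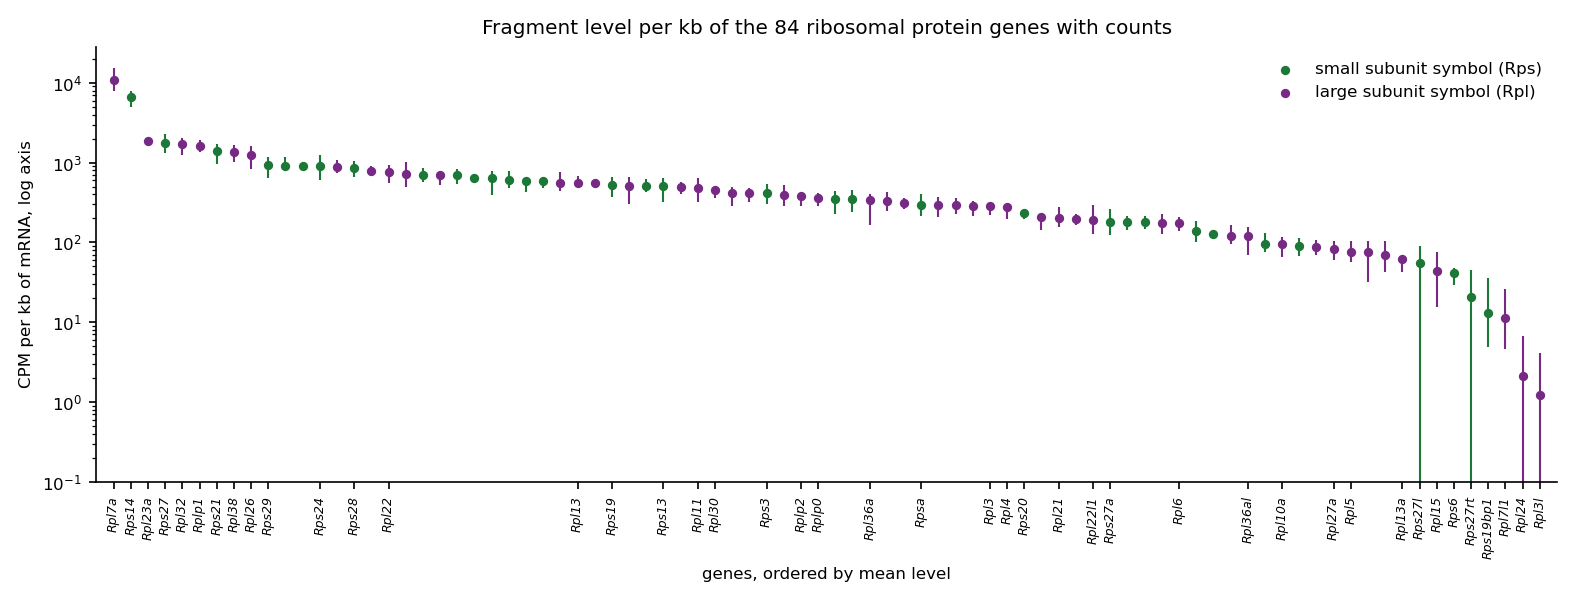
CPM per kb of the representative mRNA on a log axis for the 84 genes with counts, ordered by the mean of the 6 libraries (point) with the lowest and highest library (line, cut at the bottom of the axis where a library is at 0). Green marks Rps symbols and purple Rpl symbols, and genes named in the text are labelled. Rpl7a and Rps14 lead, and all but 5 of the canonical genes lie between 61.3 and 1866 CPM per kb.

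Counts were low on most of the paralog copies. Rpl10l and Rpl39l, retrocopies that are known from the testis, had 0 counts in all 6 libraries, and a count of 0 allows up to 17.8 CPM of gene counts in the shallowest library. Rpl3l, known from striated muscle, had 2 counts in all, Rps27rt 9, Rps27l 34 and Rpl7l1 35. Only Rpl22l1 (128 counts) and Rpl36al (76 counts) passed the filter for testing. The 8 copies together had 284 of the 49725 counts on ribosomal protein genes. Rps19bp1 had 13 counts, of which 6 were in WT replicate 1.

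Of the canonical genes, 74 of 77 passed the filter for testing, which asked for 10 counts or more in 3 or more of the 6 libraries. The other 3 were Rps6 (44 counts), Rpl15 (41 counts) and Rpl24 (2 counts). Rps6 is the small-subunit protein phosphorylated by the S6 kinases, and its count ranged from 5 to 10 per library. Rpl24, of the large subunit, had almost no counts, with 1 in WT replicate 3 and 1 in KO replicate 3. In GENCODE vM21 47.0% of its exon bases are also exon of another gene on the same strand, and 79.0% of the 25-base words of its mRNA occur in transcripts of genes elsewhere. These overlaps limit what its count can show, and their part in it was not tested.

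Sequence shared with copies elsewhere was common. All 77 canonical mRNAs shared 25-base words with an annotated pseudogene, and the median share of words found in transcripts of other genes elsewhere was 62.7%, with a share of 98.8% for Rps27. Rps27 shared its words mainly with the gene copy Rps27rt on chromosome 9, a gene that itself had 9 counts. For Rpl7a 89.8% of the words were shared, with 171 pseudogenes, whereas for Rps14 the share was 54.5%, with 7 pseudogenes. A read made of shared words alone may have no unique alignment and then be missing from the counts, so the level of such genes is uncertain. Over the 86 genes the share of words had a Spearman rho of 0.15 and a Pearson r of 0.26 with log2(CPM per kb + 10), given as a description, since the genes share libraries and overlap in sequence.

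The genotypes were compared gene by gene with edgeR's quasi-likelihood test over the 1391 genes that passed the filter, 76 of them ribosomal protein genes. None of the 76 was called at an adjusted p under 0.05, in either direction, and none had an unadjusted p under 0.05. Over all genes, 0% were called lower and 0% higher after adjustment, and 2.66% were lower and 2.52% higher at an unadjusted p under 0.05. DESeq2 also called 0 ribosomal protein genes, adjusted or unadjusted. The smallest adjusted p among the 76 was 0.974. The SE of their log2 fold changes lay between 0.24 and 0.44, with a median of 0.27. Counts were also simulated with the means, library sizes and spread of these data. The test recovered 47% of 200 genes with a 2-fold change and 99.5% of 200 with a 4-fold change. Most changes under 2-fold would thus go uncalled in such data.

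Fold changes leaned upwards without any call. Of the 76 genes, 60 (78.9%) had a positive log2 fold change, against 49.3% of all genes tested, and their median was 0.15 against -0.004 over all genes. The small subunit had 28 of 30 positive with a median of 0.16, and the large subunit 32 of 46 with a median of 0.15. The lean depended on single libraries. WT replicate 1 had the lowest CPM of the 6 libraries for 44 of the 76 genes (57.9%), against 19.6% of all genes tested. Without WT replicate 1, 37 of 75 had a positive fold change and the median was -0.02, the same as over all genes in that fit. KO replicate 3 had the highest CPM for 27 of the 76 genes (35.5%), against 20.4% of all genes tested, and without it 50 of 75 were positive with a median of 0.08. Without any of the other 4 libraries the median lay between 0.15 and 0.23.

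**Figure D5:**
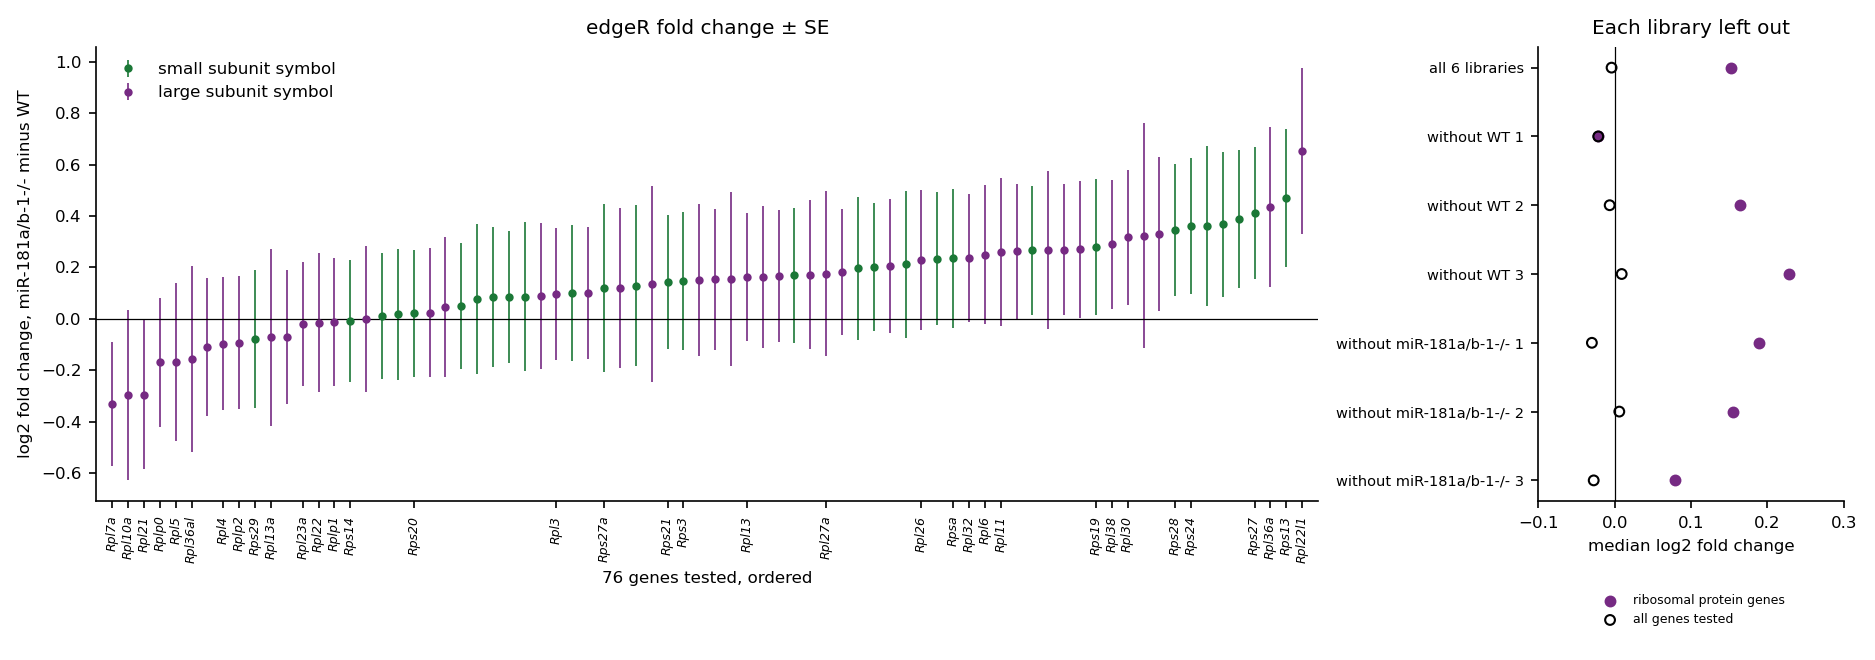
Left, the log2 fold change of KO against WT with its SE (bars) for the 76 ribosomal protein genes tested, in order, green for Rps and purple for Rpl symbols, with labels for genes named in the text. Right, the median log2 fold change of these genes (filled) and of all genes tested (open) with all 6 libraries and with each library left out. The filled point moves from 0.15 to -0.02 without WT replicate 1.

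In 7 of the 76 genes (9.21%) all 3 KO libraries were above all 3 WT libraries, against 3.24% of all genes tested, and in 0 were they all below, against 4.82% of all genes. Among them were Rpl6, Rpl13, Rpl30 and Rpl38 of the large subunit and Rps13 and Rps28 of the small subunit, of which Rpl6, Rpl13, Rpl30 and Rps28 were named after their values were seen. The lowest of the 6 libraries was WT replicate 1 for Rps13 and Rpl38, which bears on them as described above.

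Among the largest positive log2 fold changes were those of Rpl22l1, Rps13, Rpl36a and Rps27. Rpl22l1 is a paralog of Rpl22, a large-subunit protein that is known for a role in T-cell development. It had 69.7, 102 and 76.6 CPM in WT and 84.4, 163 and 139 CPM in KO libraries, from 14 to 34 counts per library. Replicates 2 and 3 of KO were above all WT libraries and replicate 1 was between them. The log2 fold change was 0.65 (SE 0.32), with a p of 0.0540 before and 0.974 after adjustment in the edgeR test. Its paralog Rpl22 had 294, 346 and 437 CPM in WT and 259, 400 and 402 CPM in KO libraries and a log2 fold change of -0.02 (SE 0.27).

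Rps13, a small-subunit protein, had 189, 274 and 284 CPM in WT and 289, 366 and 377 CPM in KO libraries. The groups did not overlap, although the gap between the highest WT and the lowest KO library was smaller than the SD of either group, and the log2 fold change was 0.47 (SE 0.27, edgeR adjusted p = 0.979, and 0.28 without WT replicate 1). Rpl36a had 79.7, 183 and 158 CPM in WT and 193, 197 and 180 CPM in KO libraries, with the low value in WT replicate 1 (log2 fold change 0.44, SE 0.31, 0.13 without that library and 0.66 without WT replicate 2). Rps27 followed with a log2 fold change of 0.41 (SE 0.26).

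At the other end were Rpl7a, Rpl10a, Rpl21, Rplp0 and Rpl5, all of the large subunit. Rpl10a had 69.7, 76.2 and 85.6 CPM in WT and 48.2, 73.3 and 65.6 CPM in KO libraries, and Rpl21 had 174, 188 and 248 CPM in WT and 139, 158 and 197 CPM in KO libraries. The groups overlapped in both, and their log2 fold changes were -0.30 (SE 0.33) and -0.29 (SE 0.29). Leaving out KO replicate 1 gave -0.17 for Rpl10a, and Rpl21 was at -0.12 without WT replicate 3 and -0.46 without KO replicate 3.

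The stalk of the large subunit recruits translation factors and is formed by Rplp0 with Rplp1 and Rplp2. Rplp0 had 563, 447 and 541 CPM in WT and 488, 389 and 500 CPM in KO libraries, Rplp1 had 682, 818 and 946 against 796, 744 and 886 CPM, and Rplp2 had 368, 371 and 383 against 380, 400 and 279 CPM. All 3 overlapped between genotypes, with log2 fold changes of -0.17, -0.01 and -0.09. Rpl5 and Rpl11 join the small ribosomal RNA of the large subunit in a particle that also binds the p53 regulator Mdm2. Rpl5 had 124, 163 and 212 CPM in WT and 115, 135 and 189 CPM in KO libraries, and Rpl11 had 269, 361 and 464 against 271, 530 and 505 CPM. Their log2 fold changes, -0.17 (SE 0.31) and 0.26 (SE 0.29), differed in sign and neither was called. The value of Rpl11 depended on single libraries, at 0.055 without WT replicate 1, 0.11 and 0.14 without KO replicates 2 and 3, 0.48 without WT replicate 3 and 0.49 without KO replicate 1. Of the 7 genes whose proteins lie around the exit of the peptide tunnel, 6 had a positive fold change, against 60 of all 76, with a median of 0.16 on the log2 scale. WT replicate 1 was the lowest of the 6 libraries in 6 of these genes, and without it 3 of the 7 were positive and the median was -0.02.

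Among single genes with known roles outside the core ribosome, Rpsa, also known as the laminin receptor precursor, had 388, 432 and 491 CPM in WT and 338, 558 and 640 CPM in KO libraries (log2 fold change 0.24, SE 0.27). Without WT replicate 1 it was 0.13, without KO replicate 3 0.035 and without KO replicate 1 0.44. Rps19, a gene mutated in Diamond-Blackfan anaemia, had 284, 356 and 460 CPM in WT and 368, 513 and 455 CPM in KO libraries (0.28, SE 0.27, on the log2 scale). It was at 0.10 without WT replicate 1, 0.17 without KO replicate 2 and 0.49 without WT replicate 3. Rps27a, made as a fusion with ubiquitin, had 84.6, 137 and 113 against 78.4, 107 and 168 CPM (0.12, SE 0.33, on the log2 scale). Rpl13a had 64.7, 61.0 and 72.1 CPM in WT and 72.4, 45.1 and 69.7 CPM in KO libraries, with 35.4% of its exon bases also exon of another gene on the same strand. In each of these 4 genes the genotypes overlapped.

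The ratio of summed counts on small-subunit and large-subunit genes overlapped between the genotypes. The log2 ratio of Rps to Rpl counts was -0.88, -0.83 and -0.35 in WT and -0.66, -0.36 and -0.41 in KO libraries, with means of -0.69 ± 0.30 and -0.48 ± 0.16 (SD, n = 3 each). The difference of 0.21 was below the SD of the WT libraries and above that of the KO libraries, and it lay between 0.11 without WT replicate 1 and 0.38 without WT replicate 3. Without Rpl7a the ratio was 0.15 ± 0.06 in WT and 0.18 ± 0.08 in KO libraries, so the difference fell from 0.21 to 0.03 on the log2 scale.

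Other genes of the translation machinery were looked at for comparison. Of the ribosomal proteins named otherwise, Rack1 had 94, 142 and 168 counts in WT and 111, 128 and 189 in KO libraries, and Fau had 25 to 42 per library. Of 47 translation factors 28 were tested, with 12 positive and 16 negative fold changes (42.9% positive, against 49.3% of all genes tested) and a median of -0.01 on the log2 scale. None was called, and 2 of the 28 (7.14%), Eif3l and Eif5, were lower in KO libraries at an unadjusted p under 0.05, against 2.66% of all genes tested. The elongation factor gene Eef1a1 had 235 to 422 counts per library and a log2 fold change of 0.15 (SE 0.25), while Eef2 had -0.37 (SE 0.27) and Tpt1 0.17 (SE 0.26). Of 44 ribosome biogenesis factors 6 passed the filter, none was called, and Ncl and Npm1 had log2 fold changes of 0.01 (SE 0.26) and 0.09 (SE 0.28). Of 78 mitochondrial ribosomal protein genes 74 had counts but 1, Mrpl52, passed the filter (log2 fold change 0.38, SE 0.38), and their sum ranged from 129 to 217 counts per library against the 6425 to 10837 of the cytosolic set.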

How the data were processed

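Per the study's methods and the submitters' processing notes, the authors removed adapters and, with Bowtie 2, ribosomal RNA, mapped what remained to GRCm38.p6 with STAR and used HTSeq to count. The values deposited by the authors are whole-number counts per gene and library, without normalization. The HTSeq mode, the annotation release and tool settings are not given in the sources used here. Of the 54547 identifiers, 53706 matched GENCODE vM21 without version, which gave symbols, exons and coordinates. Records given to no gene (75.7% to 80.3%) stayed out of library sizes and tests. A deposited table of microRNA genes with the authors' own comparison (fold changes, p-values and scaled counts) was not used.

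Genes with 10 counts or more in 3 or more of the 6 libraries were tested with edgeR 4.0.16 in R 4.3.3 (TMM factors, quasi-likelihood test, no block, Benjamini-Hochberg over all genes tested). The SE is the log2 fold change over the square root of F. The test was checked on simulated data, where it made 0 calls when nothing was changed, and 3 and 7 false calls beside 200 genes changed 2-fold and 4-fold. A chi-square statistic between replicate libraries of a genotype was 2.07 to 4.20 times its degrees of freedom over all genes and 1.21 to 7.44 times over the ribosomal protein genes, so no pair agreed within sampling noise over all genes. This does not tell whether 2 libraries came from the same sample. For each gene 1 representative mRNA was taken by APPRIS, CCDS and support tags and then the shortest, for levels per kb and for 25-base words shared with transcripts of genes elsewhere. Alternatives were DESeq2 1.42.0, other scaling factors, protein-coding genes only, other filters, a replicate block and each library left out.

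The members, the lists and the tests were chosen with earlier results of these data known. Named genes were the 10 with most counts, the 10 highest per kb, the 5 largest fold changes in each direction, members at an unadjusted p under 0.05 or at 0 in all libraries, stalk and 5S-particle genes, Rpsa, Rps27a, Rpl13a, Rps19, paralog copies, Rps19bp1, Fau, Rack1, Eef1a1, Eef2, Tpt1, Npm1, Ncl and the leading gene of each other list. Rpl3, Rpl6, Rpl13, Rpl15, Rpl22, Rpl24, Rpl27a, Rpl30, Rps6, Rps28, Eif3l, Eif5 and the snoRNA and microRNA genes inside hosts were chosen after their values were seen. Some genes that meet these rules are not reported here. Intervals and limits from counts of 0 (3 counts) cover counting error only.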

Additional observations from a re-analysis of the deposited data

How the results depend on the processing

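No ribosomal protein gene passed an adjusted p of 0.05 under any of the 13 alternatives. At an unadjusted p under 0.05, 1 was higher in KO (miR-181a/b-1-/-) libraries with DESeq2 size factors in edgeR and 1 with at least 10 counts in every library (Rpl22l1 in both), and 2 with protein-coding genes only (Rpl22l1 and Rps13). These were 1.32%, 1.41% and 2.63% of the ribosomal protein genes tested, against 2.73%, 2.27% and 2.38% of all genes in the same fits. Leaving out 1 library gave 0 to 1 higher (Rpl22l1 without WT replicate 2 or KO replicate 1) and 0 to 1 lower (Rpl7a without WT replicate 3). Each was 1 of the 76 ribosomal protein genes in its fit, and 1266, 1336 and 1234 genes were tested in these fits. Over the fits without 1 library, 17 to 45 of all genes were lower and 23 to 62 higher. The single calls are therefore not read as a result about Rpl22l1 or Rpl7a. Over all genes, DESeq2 had 11 lower and 13 higher at an unadjusted p under 0.05, the filter in every library 20 and 17, no filter 214 and 228, and leaving out 1 library 17 to 45 and 23 to 62. After adjustment, protein-coding genes only gave 4 higher over all genes, no filter 1 lower and 7 higher, and leaving out 1 library 0 to 1 lower and 0 to 5 higher (5 higher without KO replicate 1, 1 lower and 3 higher without KO replicate 3).

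With the replicate number as a block, 0 were called after adjustment and 4 were higher at an unadjusted p under 0.05 (Rps24, Rpl22l1, Rps27 and Rps13). These 4 were 5.26% of the ribosomal protein genes tested, against 3.45% of all genes (48 higher, beside 40 lower). Nothing in the labels pairs same-numbered libraries, so the numbers were not taken to pair them. The correlations of their deviations over all genes tested were 0.23, 0.08 and 0.18 for replicates 1, 2 and 3. Each library correlated best with its own number there. Over the ribosomal protein genes tested the values were 0.12, -0.16 and 0.34. On these genes WT replicate 1 correlated best with KO replicate 2 (0.27) and WT replicate 2 with KO replicate 1 (0.07).

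The median log2 fold change of the ribosomal protein genes ranged from -0.022 (without WT replicate 1) to 0.23 (without WT replicate 3) and stayed between 0.13 and 0.17 under the 7 alternatives that keep all libraries. Of 37 named genes tested, 21 kept their sign under every alternative that gave a value (12 of the 13 for Rpl10a and Mrpl52, which had under 10 counts in a library) and 16, none of them called, did not. Of these, Rplp1 was at 0.0058 with DESeq2, 0.0056 with its size factors in edgeR and 0.0085 with protein-coding genes only, and Rps14 at 0.0083, 0.0084, 0.0078 and, with the replicate block, 0.015, all on the log2 scale. Ncl was at -0.0018 with no filter. Leaving out 1 library gave ranges of log2 fold changes across 0: Rpl13a -0.18 to 0.10, Rpl23a -0.10 to 0.028, Rpl36al -0.38 to 0.051, Rpl5 -0.41 to 0.056, Rplp1 -0.15 to 0.12, Rplp2 -0.19 to 0.060, Rps14 -0.21 to 0.14, Rps20 -0.10 to 0.12, Rps21 -0.069 to 0.27, Rps27a -0.26 to 0.31, Rps29 -0.29 to 0.091, Rps3 -0.060 to 0.34, Fau -0.11 to 0.20, Ncl -0.078 to 0.17, Npm1 -0.052 to 0.17 and Rack1 -0.058 to 0.29. The cause was not tested. Other values printed in the report kept their sign but moved by over 1.5 times when 1 library was left out: Rplp0 was at -0.27 without WT replicate 2 and -0.061 without KO replicate 2, Eef1a1 from 0.0099 to 0.27 (without KO replicates 2 and 1; 0.017 and 0.24 without WT replicates 1 and 3), Eef2 at -0.20 without WT replicate 1 or KO replicate 3, Tpt1 at 0.066 and 0.084 without WT replicate 1 and KO replicate 2, and Mrpl52 at 0.18, 0.63 and 0.10 without WT replicate 2, KO replicate 2 and KO replicate 3. The differences in shares of counts and in the subunit ratio moved by less than the SD of the WT libraries under every alternative run on them, but in places by more than that of the KO libraries. The share of gene counts differed by -0.137 percentage points without WT replicate 1 and 0.219 without Rpl7a (KO SD 0.149), and the log2 subunit ratio by 0.38 without WT replicate 3 and 0.035 without Rpl7a (KO SD 0.16). Counts on single ribosomal protein genes had a median of 390 over the 6 libraries together among those tested. These counts and the spread between replicates limit what the comparison can show.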
